A study of Rattus norvegicus with 18 samples.

Results

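The genes described here encode the proteins of the cytosolic ribosome, measured in rat lung around birth. They were chosen by name: probe sets annotated to 1 gene whose symbol begins with Rpl or Rps and a number, or is Rplp0, Rplp1, Rplp2 or Rpsa, without the S6 kinases. The rule found 57 probe sets for 50 genes, and 46 of these genes had a probe set bright enough to be tested, among 11590 genes tested on the array. Of the 46 genes, 40 were canonical ribosomal protein genes (27 of the large and 13 of the small subunit), and 6 were paralogs, -like or predicted genes, given apart. The canonical list holds 77 genes. 42 of them met the rule, and Rpl28 and Rpl30 among these were too dim to test. The other dim genes were Rpl3l and Rps4x-ps1. Rplp1 lies on a probe set shared with other annotated genes, and Rplp2 was not analysed here. A gene with several probe sets was represented by its brightest tested one.

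Lungs of Wistar rats were taken as fetuses on fetal day 19 (FD19, canalicular stage) and fetal day 22 (FD22, saccular stage before birth), delivered by Caesarean section, and as vaginally born newborns 5 h after birth (P1, saccular stage after birth). Each stage held 3 litters, which gave 9 lysates of snap-frozen whole lung. Each lysate was divided into total RNA and RNA recovered from large polysomes, with more than 7 ribosomes per mRNA, and the 18 RNAs were hybridised to 18 arrays, so that every group of stage and RNA fraction held 3 arrays. The polysomal over total ratio of a gene therefore compares 2 arrays of the same lysates.

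The small subunit of the ribosome reads the mRNA, and the large subunit joins the amino acids. One copy of nearly every ribosomal protein goes into each particle. Most mRNAs for these proteins begin with a run of pyrimidines at their cap, the terminal oligopyrimidine (TOP) tract, and TOP mRNAs are known in vertebrates to move between polysomes and untranslated particles with growth signals, through mTORC1 and the RNA-binding protein Larp1. Ribosomal protein mRNAs are also short, and a short reading frame holds few ribosomes even when it is translated.

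Signals are linear intensities. All arrays had been scaled to the same 2% trimmed mean of 150, so a ratio states what share of the polysomal RNA a gene took relative to its share of total RNA, and gives no amount per cell. Differences below are on the log2 scale, given ± the standard error (SE) that limma estimated, with n = 3 arrays a group. A call is an adjusted p under 0.05 over all 21675 probe sets tested. The surfactant genes Sftpb and Sftpc, markers of lung type II cells, had signals of at least 905 and 3836 on every array. By its liver genes, FD22 replicate 2 stood apart from the other lysates. Alb, the liver albumin gene, had a signal of 4891.5 in polysomal and 5662 in total RNA of FD22 replicate 2, against 31.6 to 147 on the other 16 arrays, and the liver gene Ttr had 796.7 and 643.1 there, against 31.3 to 127.3 elsewhere. Most counts of calls and some of the medians of the gene lists that involve FD22 are therefore also given without this lysate. What else it contributed was not tested. Summed signals of 3 heart and skeletal muscle genes lay between 327.7 and 1611.2 over all arrays, and differed between lysates of a stage. In total RNA the sums ran from 636.6 to 1611.2 at FD19, 452.2 to 1386 at FD22 and 458.3 to 792.2 at P1. Among total arrays Myh6 was highest in FD19 replicate 1 (1157.2) and FD22 replicate 3 (1062.9). None of the 3 was called between adjoining stages in total RNA, a test that cannot show what single lysates carried.

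The annotated starts of these genes are shown because the TOP tract lies there. RefSeq entries (assembly GRCr8) matched 41 of the 46 genes. The 30 bases below run from 15 before to 15 after the annotated start, in the direction of transcription, with the longest pyrimidine run in capitals. The first 6 belong to the canonical genes with the lowest polysomal over total ratio, the next 2 to genes whose signals changed with stage, the next 4 to genes at the high end of the ratio and the last 2 to the paralogs that stood above total RNA.
Rpl37a (chr9:81748076-81748105, plus strand): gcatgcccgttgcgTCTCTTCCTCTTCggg
Rps28 (chr7:15311319-15311348, minus strand): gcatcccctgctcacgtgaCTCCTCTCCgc
Rps15 (chr7:10068101-10068130, minus strand): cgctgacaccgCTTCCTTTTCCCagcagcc
Rpl41 (chr7:1563483-1563512, minus strand): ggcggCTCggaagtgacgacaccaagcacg
Rplp0 (chr12:46718376-46718405, minus strand): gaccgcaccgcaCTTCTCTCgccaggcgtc
Rps16 (chr1:92770643-92770672, plus strand): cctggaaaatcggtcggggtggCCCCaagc
Rpl35a (chr11:81235007-81235036, minus strand): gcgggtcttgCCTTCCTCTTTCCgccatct
Rpl4 (chr8:73566462-73566491, plus strand): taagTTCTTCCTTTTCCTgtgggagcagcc
Rpl3 (chr7:113507976-113508005, minus strand): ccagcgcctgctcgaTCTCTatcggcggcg
Rps9 (chr1:74430423-74430452, minus strand): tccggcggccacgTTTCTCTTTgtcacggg
Rpl6 (chr12:41011676-41011705, minus strand): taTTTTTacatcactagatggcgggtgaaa
Rpl18 (chr1:105325255-105325284, plus strand): TCTggacctggtctagcaggaggcgccatc
Rpl7l1 (chr9:21695703-21695732, plus strand): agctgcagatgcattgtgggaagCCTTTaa
Rps4y2 (chr4:183000898-183000927, plus strand): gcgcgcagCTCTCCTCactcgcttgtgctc

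Runs of pyrimidines were longer at these starts than at most. Within 20 bases on each side of the start, 25 of the 36 canonical genes with an entry (69.4%) held a run of at least 8 pyrimidines, against 15.5% of all 33469 entries, and the median longest run was 10 bases, against 5. The hexamer CTTTCC was searched on both strands, together with the hexamer CTCTTT and, as the third, CTTTTC, which may overlap each other. At least 1 of them stood on the transcribed strand of 20 canonical genes (55.6%), against 4.34% of all entries, and on the other strand of 1 (2.78%), against 4.27%. The hexamers consist of pyrimidines only, so these counts are not independent of the runs counted above. No rule for picking these 3 is given here, so their share is a description only. The length of this run did not order the genes by their ratio. Across the 36 genes, measured on the same arrays, it had a Pearson r of 0.03 and a Spearman rho of -0.04 with the mean polysomal over total ratio. The starts were annotated and not mapped in these lungs, and the run could lie anywhere in the bases searched. Its length therefore need not be that of the TOP tract at the cap, whose relation to the ratio was not tested.

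On its brightest probe set, each of the 40 canonical genes tested took a smaller mean share of polysomal than of total RNA. Averaged over the 3 stages, 40 of 40 genes were lower in polysomal RNA and called by limma, beside 46.4% of all probe sets called in either direction and 27.6% called lower. The median of the 40 was -1.10 on the log2 scale, or 46.8% of the total signal, with a range from -1.75 to -0.50. The median of all probe sets was -0.09. The SE of a single gene lay between 0.06 and 0.17.

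By stage, the median polysomal over total ratio of the 40 genes was -1.02 at FD19, -1.37 at FD22 and -0.83 at P1, that is 49.3%, 38.6% and 56.4% of the total signal. The numbers called lower were 39 at FD19, 40 at FD22 and 38 at P1, and none was called higher. Of all probe sets, 20.9%, 15.4% and 18.5% were called at these stages, and 10.9%, 8.6% and 10.4% were called lower. The gene missed at FD19 was Rps13, and those missed at P1 were Rps6 and Rpl18. With the lysate as a replicate block Rps6 was called at P1 as well (adjusted p = 0.0392 by limma), and the counts were 39, 40 and 39, beside 31.3%, 26.1% and 27.9% of all probe sets. The arrays of the 2 fractions did not overlap for 39, 40 and 34 of the 40 genes, beside 43%, 29.6% and 35.8% of all probe sets. Without FD22 replicate 2, the FD22 median was -1.35 and 40 genes were called, and the mean over the stages had a median of -1.09 with 40 called. Of all probe sets, 9.03% and 43.2% were then called.

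**Figure D1:**
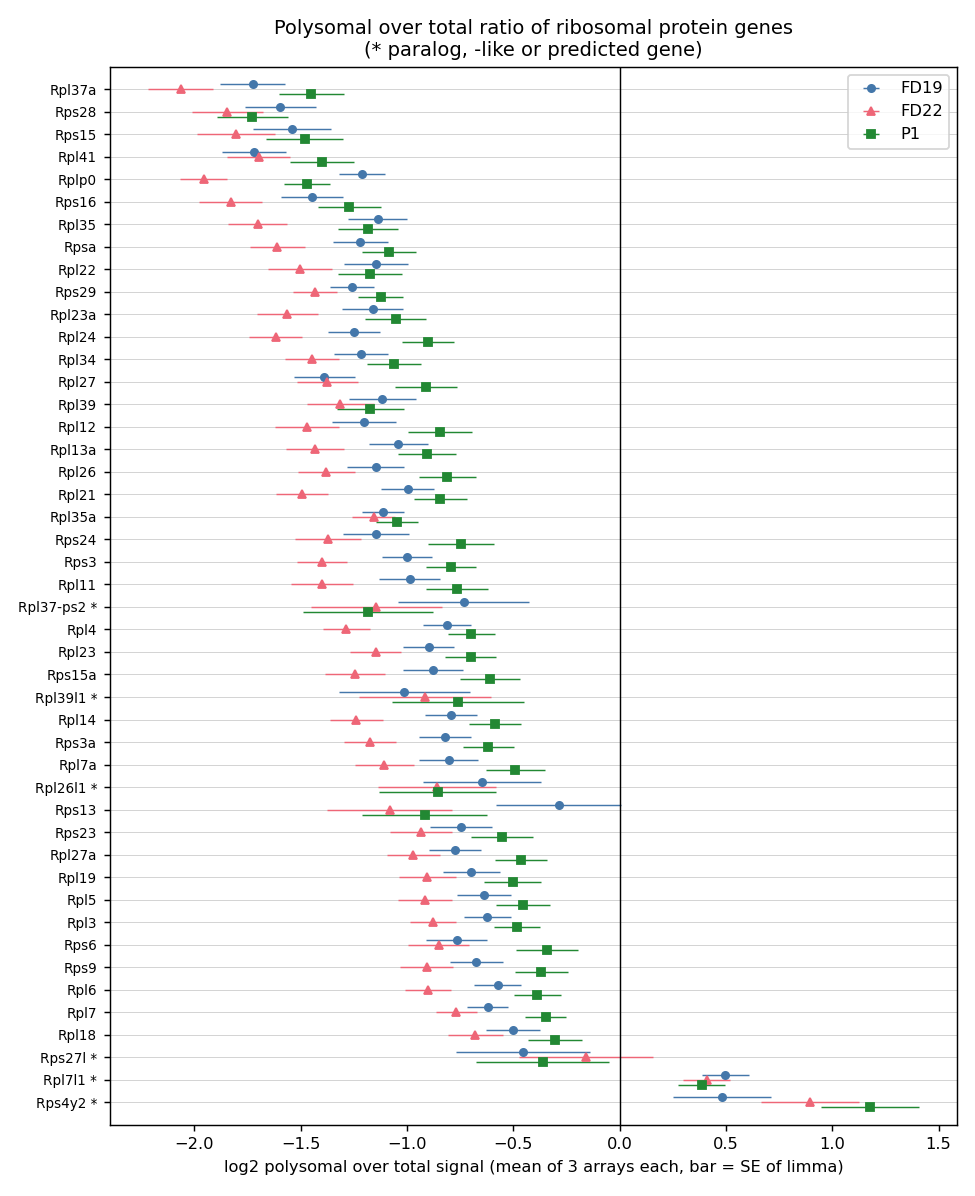
Polysomal over total ratio (log2, horizontal axis) of the 46 genes, ordered by their mean over the 3 stages, with the lowest on top. Each symbol is the difference of 2 means of 3 arrays at FD19, FD22 or P1 and each bar the SE of limma. The 40 canonical genes lie left of 0 at every stage, and Rpl7l1 and Rps4y2 lie right of it.

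The scaling between arrays bears on the size of these ratios. Centring each array on its median moved the median ratio of all probe sets by 0.17, 0.23 and 0.20 at the 3 stages. It shifts all genes of an array alike, so it cannot change where a gene stands relative to that median. The canonical medians were then -0.85, -1.14 and -0.63, with 40 of 40 genes below 0 at each stage. Quantile normalization, which forces all arrays onto one distribution, gave canonical medians of -0.49, -1.06 and -0.63 at FD19, FD22 and P1. At FD19 only 24 genes were then called, 35 of 40 lay below 0, and Rpl3, Rpl5, Rpl6, Rpl7 and Rpl18 stood above it. The share of all probe sets called after this normalization is not given here. Among the brightest probe sets of other genes, with a mean signal above 2000 in total RNA (246 probe sets), the median ratio was -0.33, -0.22 and -0.10 at the same stages and -0.21 on average.

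The lowest ratios belonged to Rpl37a and Rpl41 of the large subunit, Rplp0 of its stalk, and Rps28, Rps15 and Rps16 of the small subunit. Rpl37a had polysomal signals of 1621, 1612 and 1696 at FD19, against 4769, 5564 and 6069.9 in total RNA of the same lysates. At FD22 it had 1203, 1254 and 1035 in polysomal RNA, against 4029, 5015 and 5715 in total RNA, and at P1 1684, 2202.5 and 1712, against 4036, 5493 and 5876. All polysomal arrays lay well below all total arrays. Its ratio was -1.72 ± 0.15 at FD19 (adjusted p = 8.13e-07 by limma), -2.06 ± 0.15 at FD22 (6.15e-08) and -1.45 ± 0.15 at P1 (4.58e-06).

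Rplp0 encodes P0, the base of the stalk that receives the elongation factors. Its polysomal signals were 2212, 1884 and 1836 at FD19, 1158, 1081 and 958 at FD22, and 1274, 1502 and 1479 at P1. In total RNA it had 4709, 4178 and 4839 at FD19, 4335, 3958 and 4125 at FD22, and 3702, 3810.0 and 4299.7 at P1. The fractions did not overlap at any stage, and the gap was widest at FD22, with a ratio of -1.96 ± 0.11 (adjusted p = 5.86e-09 by limma), beside -1.21 ± 0.11 at FD19 and -1.47 ± 0.11 at P1. Rpl41, the shortest ribosomal protein and a bridge between the subunits, stood at -1.72 ± 0.15, -1.70 ± 0.15 and -1.40 ± 0.15 at FD19, FD22 and P1. Rps28, a small subunit protein close to the mRNA exit, had -1.60 ± 0.17, -1.85 ± 0.17 and -1.73 ± 0.17. Rps15, at the head of the small subunit, averaged -1.61 ± 0.11 and Rps16, also of the head, -1.51 ± 0.09.

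The ratios nearest to 0 belonged to Rpl18, Rpl7, Rpl6 and Rpl3 of the large and Rps9 and Rps6 of the small subunit. Rpl18 had polysomal signals of 2909.7, 2839 and 2760.0 at FD19, against 3855, 4089 and 4119.7 in total RNA. At P1 it had 2239, 3394 and 2362.5 in polysomal RNA, against 3068, 3139 and 3518.5 in total RNA, and these groups overlapped through the polysomal array of replicate 2. Its ratio was -0.50 ± 0.13 at FD19 (adjusted p = 0.00973 by limma), -0.68 ± 0.13 at FD22 (0.00161) and -0.30 ± 0.13 at P1 (0.106). Rps6, the ribosomal protein phosphorylated by the S6 kinases downstream of mTORC1, stood at -0.77 ± 0.14 at FD19, -0.85 ± 0.14 at FD22 and -0.34 ± 0.14 at P1 (adjusted p = 0.11, and 0.0392 with the lysate as a block). Rpl3, which lies at the peptidyl transferase centre, averaged -0.66 ± 0.06 over the stages, Rps9 -0.65 ± 0.07, Rpl6 -0.62 ± 0.06 and Rpl7 -0.58 ± 0.06. Rpsa, the protein of the small subunit also known as the laminin receptor, lay between these ends at -1.30 ± 0.07.

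**Figure D2:**
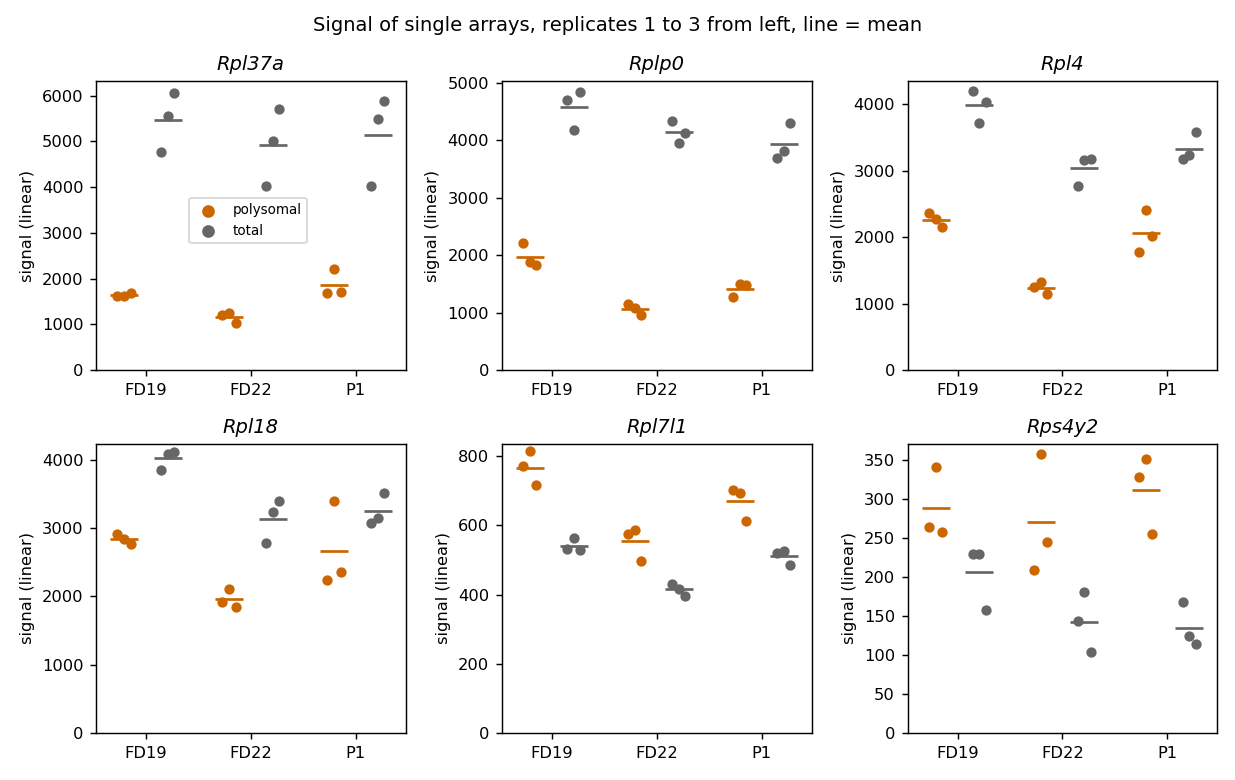
Signal (linear) of each array for 6 genes at FD19, FD22 and P1, with polysomal RNA left of total RNA and replicates 1 to 3 from left to right in each group. The line is the mean of 3 arrays. Polysomal arrays lie below total arrays in Rpl37a, Rplp0 and Rpl4, touch them at P1 in Rpl18 and lie above them in Rpl7l1 and Rps4y2.

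The medians of the subunits lay close to each other, and their difference was not tested. The mean ratio had a median of -1.11 over 27 large subunit genes and -1.06 over 13 small subunit genes. By stage the medians were -1.04 and -1.001 at FD19, -1.37 and -1.37 at FD22, and -0.84 and -0.79 at P1, large subunit before small. The FD22 medians were -1.34 and -1.39 without FD22 replicate 2. The standard deviation (SD) over genes was 0.32 for the mean ratio in the large and 0.37 in the small subunit, and genes of both lay at either end of the order.

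The order of the genes was much the same at each stage. Across the 40 genes the ratios had a Pearson r of 0.88 between FD19 and FD22, 0.91 between FD22 and P1 and 0.85 between FD19 and P1 (Spearman rho 0.90, 0.90 and 0.86). These are correlations across genes, whose ratios at the stages come from the same probe sets but from different arrays. The mean ratio had an r of -0.08 with the log2 total signal of the probe set. Within a stage, the SD over the 40 genes was 0.33 at FD19, 0.35 at FD22 and 0.37 at P1, while the SE of single genes was 0.10 to 0.30.

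The genes outside the canonical list behaved differently from one another. Rpl7l1, a nucleolar relative of Rpl7 that takes part in assembly of the large subunit, had polysomal signals of 771, 815 and 716 at FD19, against 531.5, 565 and 528 in total RNA. At FD22 it had 576, 588 and 497.5, against 432, 416 and 397, and at P1 703.5, 695 and 614, against 520.2, 527.5 and 486. Polysomal arrays were above total arrays at all 3 stages, with ratios of 0.50 ± 0.11 (adjusted p = 0.00393), 0.41 ± 0.11 (0.0168) and 0.39 ± 0.11 (0.0196) by limma. Its other probe set gave 0.51 ± 0.12, 0.41 ± 0.12 and 0.49 ± 0.12. Rpl7 itself stood at -0.62 ± 0.10, -0.77 ± 0.10 and -0.35 ± 0.10 on its brighter probe set. The dimmer probe set of Rpl7 gave -0.07 ± 0.22, -0.19 ± 0.22 and 0.20 ± 0.22, none of them called.

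Rps4y2, a relative of the small subunit gene Rps4x, had polysomal signals of 328, 351 and 255 at P1, against 168, 124 and 113.5 in total RNA. At FD22 it had 209, 358 and 244.5, against 144, 181 and 103, and at FD19 264, 342 and 258, against 230.0, 229.6 and 158. The polysomal arrays were the higher ones at each stage, but the ratio was called only at FD22 (0.89 ± 0.23, adjusted p = 0.0129 by limma) and P1 (1.18 ± 0.23, 0.00159), and stood at 0.48 ± 0.23 at FD19 (0.143, and 0.0295 with the lysate as a block). Rps27l, a p53-induced relative of Rps27, averaged -0.32 ± 0.18 (adjusted p = 0.15), with polysomal signals of 377.6, 163 and 167 at FD19, against 335, 292 and 277 in total RNA. Its polysomal array of replicate 1 was the highest of its group at each stage. Rpl26l1, Rpl37-ps2 and Rpl39l1 were dim, with mean signals of 78.5, 50.9 and 36.0 in total RNA, and averaged -0.79 ± 0.16, -1.02 ± 0.18 and -0.89 ± 0.18. Among the canonical genes only Rps13 was as dim (47.7), and Rpl39 had 369.6.

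In total RNA the median of the ribosomal protein genes was slightly lower at FD22 than at FD19, and few genes passed the test. 5 of 40 (12.5%) fell and none rose, a share near those of all probe sets (16.2% called and 7.82% called lower). The median of the 40 genes was -0.21, beside 0.01 for all probe sets and -0.12 for the bright probe sets of other genes. Of these bright probe sets 36.6% were called. The 5 were Rpl35a (-0.44 ± 0.10, adjusted p = 0.00457 by limma), Rpl4 (-0.39 ± 0.11, 0.0203), Rpl14 (-0.38 ± 0.12, 0.0416), Rps9 (-0.37 ± 0.12, 0.0484) and Rpl7 (-0.30 ± 0.10, 0.0421). Rpl35a, a large subunit gene mutated in human Diamond-Blackfan anaemia, had 3539.5, 4160.3 and 3849 at FD22, against 5075, 5211 and 5346 at FD19. The arrays of the stages did not overlap for 17 of the 40 genes, beside 33.3% of all probe sets. Without FD22 replicate 2 the count was 2, beside 14.5% of all probe sets. It was 1 without FD19 replicate 1, FD19 replicate 3 or FD22 replicate 1, 3 without FD19 replicate 2, FD22 replicate 3 or P1 replicate 3, and 0 after quantile normalization, which gave a median of -0.07. After median centring it was 9, with a median of -0.28. In whole lung, fewer cells of a type and less RNA per cell cannot be told apart.

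Markers of several cell types moved with this comparison. All 4 proliferation markers measured (Mki67, Top2a, Ccnb1 and Cdk1) fell in total RNA, and their summed signal per array was 1232 to 1729 at FD22, against 3572 to 4044 at FD19. In polysomal RNA the sums were 1297 to 1884 at FD22, against 3151.5 to 3655 at FD19. Of the markers of differentiated cells, 4 of 5 of lung type II cells, 3 of 3 of type I cells, 2 of 2 of airway cells, 3 of 3 of leukocytes and the 1 measured of endothelium rose in total RNA. Ager, a type I gene, stood at 3.46 and Napsa, a type II gene, at 3.06 on the log2 scale, and 1 of 3 erythroid genes fell. The part of these shifts in the lower median of ribosomal protein genes was not tested.

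In total RNA no change of these genes was detected at P1 relative to FD22. None of the 40 canonical genes was called between P1 and FD22 by limma, beside 3.97% of all probe sets, and 0 had an unadjusted p under 0.05, beside 17% of all. The median was 0.01, with a range from -0.10 to 0.23. The smallest adjusted p belonged to Rpl39 (0.23 ± 0.16, 0.513) and Rpl4 (0.13 ± 0.11, 0.607). The arrays of the stages overlapped for all 40 genes, while 20.8% of all probe sets did not overlap. Against FD19 the median of the 40 was -0.20. At P1 5 genes were lower and called (Rpl35a, Rpl7, Rpl21, Rpl14 and Rpsa). They were 12.5% of the 40, near the 13.7% of all probe sets called lower (26.2% in either direction). That count was 1 without FD19 replicate 1 or 3, 2 without P1 replicate 1, and 3 without FD19 replicate 2 or P1 replicate 2. Total arrays of the same number at FD19 and P1 deviated together, though no label pairs their litters. With the number as a replicate block, a pairing chosen from these same arrays, 14 genes were called, beside 30.6% of all probe sets. Rpl21, of the large subunit, had 2858, 2519 and 2831 in total RNA at P1, against 3697, 3190 and 4045 at FD19 (-0.41 ± 0.12, adjusted p = 0.0185). Stage means in total RNA varied most for Rpl35a, Rpl14 and Rpl21 (SD 0.24, 0.22 and 0.21) and least for Rpl37a, Rpl35 and Rpl41 (0.08, 0.05 and 0.05).

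In polysomal RNA the change before birth was larger. 31 of 40 canonical genes fell at FD22 relative to FD19 and none rose, beside 15.9% of all probe sets called and 7.7% called lower, and the median was -0.52. The median signal of the 40 genes was 1685, 1652 and 1572 on the polysomal arrays of FD22, against 2561, 2354.5 and 2267 on those of FD19. These arrays did not overlap. The arrays of the stages did not overlap for 35 of the 40 genes, beside 32.3% of all probe sets. Among the large subunit 23 of 27 genes fell (median -0.50), and among the small subunit 8 of 13 (median -0.53).

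The steepest of the 8 falls with the smallest p was that of Rplp0, to 1158, 1081 and 958 at FD22, against 2212, 1884 and 1836 at FD19 (-0.89 ± 0.11, adjusted p = 2.67e-05 by limma). Rpl4, whose protein lines the exit tunnel, had 1255, 1328 and 1149 at FD22, against 2363, 2282.5 and 2157.5 at FD19 (-0.86 ± 0.11, 3.98e-05). Each array of FD22 lay below each of FD19 for both genes. Rpl14 fell by 0.83 on the log2 scale, Rpl21 by 0.81, Rpsa by 0.75, Rpl13a by 0.71, Rps3, which lies at the mRNA entry, by 0.69, and Rpl35a by 0.48. Their adjusted p lay between 0.000155 and 0.00223. The dim Rps13 had the largest fitted fall of the 40 (-1.19 ± 0.30, 0.00919). The 9 genes that were not called ran from -0.46 (Rps28, adjusted p = 0.0661) to -0.04 (Rpl39, 0.912) and included Rpl41 (-0.07) and Rps6 (-0.29, 0.197). No label pairs litters of different stages, but the polysomal arrays of the same number at these stages deviated together. With the number as a replicate block, a pairing chosen from these same arrays, 37 genes were called, beside 25.3% of all probe sets. Among them were Rps28 (adjusted p = 0.00438), Rps29 (0.0234) and Rps6 (0.0279), while Rpl41, Rpl27 and Rpl39 were not called. Without a block, the count was 25 without FD22 replicate 2 (19 large and 6 small subunit genes), with a median of -0.54, beside 15.4% of all probe sets. It was 18 without FD19 replicate 1, with a median of -0.48.

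**Figure D3:**
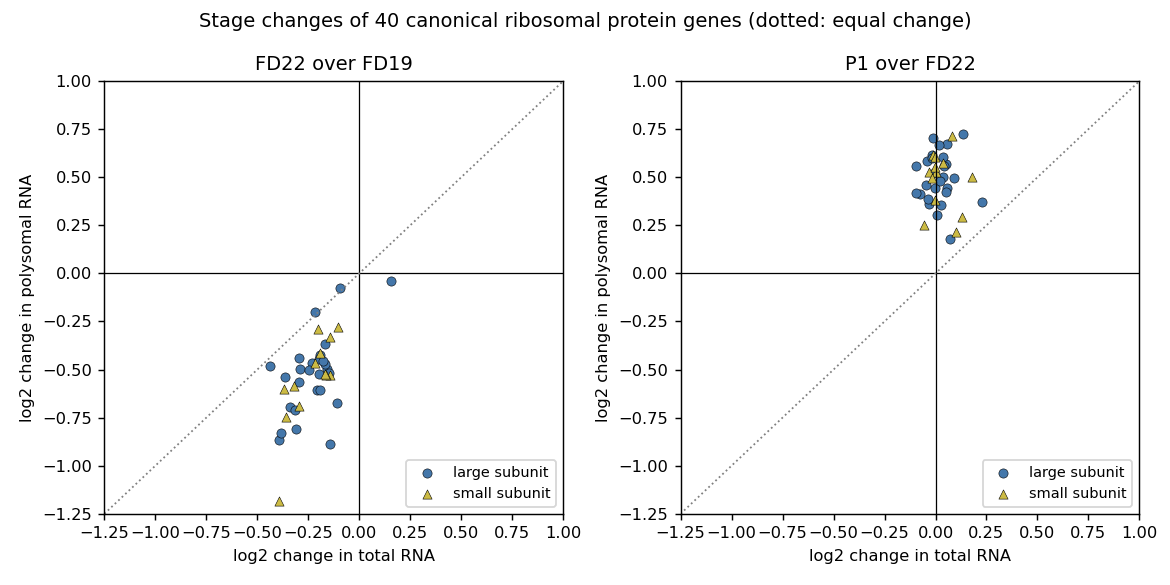
Change of each of the 40 canonical genes between stages, in total RNA (log2, horizontal axis) and polysomal RNA (log2, vertical axis), for FD22 over FD19 (left) and P1 over FD22 (right). The dotted line marks equal change. Most genes lie below the line on the left (medians -0.21 in total and -0.52 in polysomal RNA), and all lie above it on the right (0.01 and 0.50).

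After birth the polysomal signals were higher again. 30 of 40 canonical genes rose at P1 relative to FD22 and none fell, beside 8.34% of all probe sets called and 3.79% called higher, and the median was 0.50. The median signal of the 40 genes was 2179, 2951 and 1980.4 on the polysomal arrays of P1, against 1685, 1652 and 1572 at FD22. Replicate 2 of P1 was the highest, and all 3 arrays lay above those of FD22. The arrays of the stages did not overlap for 33 of the 40 genes, beside 23% of all probe sets. Among the large subunit 22 of 27 genes rose (median 0.49), and among the small subunit 8 of 13 (median 0.53). The bright probe sets of other genes had a median of 0.18 in this comparison and -0.03 between FD22 and FD19.

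Rpl4 rose the most among the genes called, with 1773, 2406 and 2026 at P1, against 1255, 1328 and 1149 at FD22 (0.72 ± 0.11, adjusted p = 0.00063 by limma). Rpl24, which bridges the subunits, had 1855, 1938 and 1489.6 at P1, against 1263, 964 and 1013 at FD22 (0.70 ± 0.12, 0.00172). Neither gene overlapped between the stages. Rps15a stood at 0.72 ± 0.14 (0.00399), Rpl14 at 0.67 ± 0.12 (0.00258), Rps3 at 0.60 ± 0.12 (0.00378), Rps9 at 0.57 ± 0.12 (0.00728), Rpl6 at 0.56 ± 0.11 (0.00349) and Rps3a at 0.55 ± 0.12 (0.0079). The 10 genes that were not called ran from 0.18 (Rpl35a, adjusted p = 0.321) to 0.50 (Rps15, 0.0988). The count of calls was 8 without P1 replicate 2, 14 without FD22 replicate 2 and 15 without FD22 replicate 3, with medians of 0.36, 0.50 and 0.46. Of all probe sets, 4.96% were called without FD22 replicate 2, and the shares in the other settings are not given here. The 14 were 8 large and 6 small subunit genes. Fitted on the 6 arrays of this comparison alone, 1 gene, Rpl4, was called (adjusted p = 0.035).

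Between P1 and FD19 the polysomal signals of these genes had a median difference near 0. The median of the 40 was -0.00, with 19 genes above 0 and 21 below, and 3 were called lower at P1, beside 28.9% of all probe sets and 15.8% called lower. They were Rplp0 (-0.48 ± 0.11, adjusted p = 0.00264 by limma), Rpl35a (-0.31 ± 0.10, 0.0252) and Rps13 (-0.89 ± 0.30, 0.0285), whose dim probe set had 16.7, 19.6 and 28.6 at P1, against 52.5, 44.0 and 36.9 at FD19. The count was 1 without FD19 replicate 1, FD19 replicate 2 or P1 replicate 1. Quantile normalization gave a median of -0.24, beside -0.01 for all probe sets, with 34 of the 40 genes below 0. It gave 19 calls here, all lower, and the share of all probe sets called in that setting is not given here.

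The ratio itself, which sets the polysomal against the total change, had lower precision. No canonical gene passed the test for a change of ratio between any 2 stages. The medians were -0.27 for FD22 minus FD19, 0.51 for P1 minus FD22 and 0.19 for P1 minus FD19, and 38 of 40 genes were below 0 in the first and 40 of 40 above 0 in the second. Without FD22 replicate 2 the first was -0.29 and the second 0.52, again with 0 calls. The signs come from genes of the same arrays and are no replicates. Of all probe sets, 0%, 0.0138% and 0.115% were called in these 3 comparisons. With the lysate as a replicate block the calls were again 0 among the 40 genes in each, beside 0%, 0.0784% and 1.04% of all probe sets. At an unadjusted p under 0.05, 9 of the 40 genes were lower at FD22 than at FD19 (beside 3.6% of all probe sets in either direction) and 30 higher at P1 than at FD22 (4.35%). The smallest adjusted p of limma for P1 minus FD22 was 0.389, for Rpl24 (0.72 ± 0.17), and for FD22 minus FD19 0.987, for Rplp0 (-0.75 ± 0.15). For P1 minus FD19 it was 0.428, for Rpl27 (0.48 ± 0.20), followed by Rps6 (0.42 ± 0.20, 0.506). The median for P1 minus FD19 turned to -0.19 after quantile normalization.

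Per lysate, the median ratio of the 40 genes was -0.90, -1.0004 and -1.14 in the 3 lysates of FD19, -1.06, -1.35 and -1.54 in those of FD22, and -0.75, -0.50 and -1.14 in those of P1. The lysates of adjoining stages overlapped. FD22 replicate 1 lay above FD19 replicate 3, and P1 replicate 3 lay below FD22 replicate 1. The median over all probe sets lay between -0.10 and -0.03 in the 9 lysates. In P1 replicate 2, 38 of the 40 genes were below 0, with Rpl18 (0.11) and Rps9 (0.04) above it. In every other lysate all 40 were below 0. Gene by gene, the 3 lysates of FD22 were all below those of FD19 for 17 of 40 genes (7.09% of all probe sets), those of P1 all above FD22 for 16 (5.5%) and those of P1 all above FD19 for 5 (10.2%). The last count lay near the share of all probe sets, and its 5 genes were Rpl27a, Rpl5, Rpl3, Rps6 and Rpl7. For Rplp0 the lysate ratios were -1.09, -1.15 and -1.40 at FD19, -1.90, -1.87 and -2.10 at FD22, and -1.53, -1.34 and -1.54 at P1, with no overlap between adjoining stages.

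**Figure D4:**
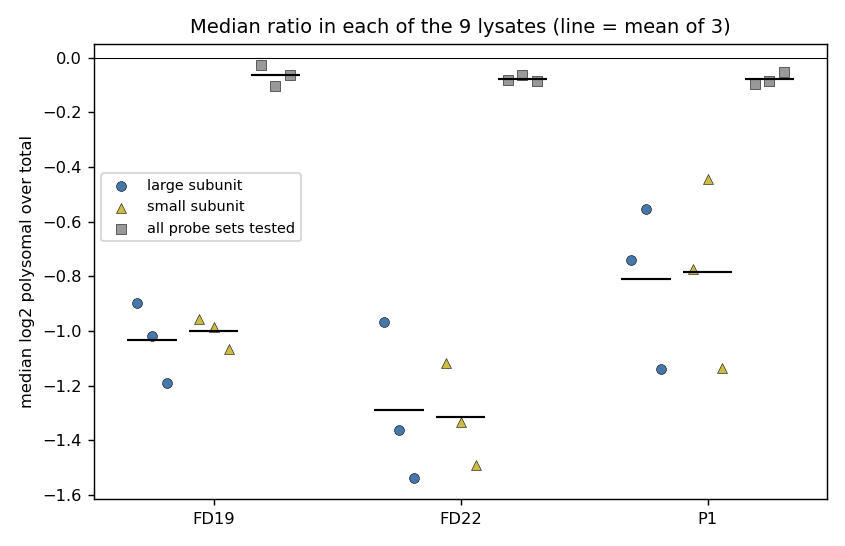
Median polysomal over total ratio (log2, vertical axis) in each of the 9 lysates, replicates 1 to 3 from left, for 27 large subunit genes, 13 small subunit genes and all 21675 probe sets. The line is the mean of 3 lysates. Large and small subunit medians lie close together in each lysate, highest in P1 replicate 2 (-0.55 and -0.44), while all probe sets stay between -0.10 and -0.03.

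Other mRNAs known to carry a TOP tract were also lower in polysomal than in total RNA. Of 20 listed, 12 were measured on a probe set of their own, and all 12 were lower in polysomal RNA averaged over the stages and called (median -0.57), beside 27.6% of all probe sets. The lowest were the elongation factor gene Eef1g (-1.16 ± 0.06, adjusted p = 1.59e-10 by limma), Rack1, a protein bound to the small subunit (-1.01 ± 0.06), the initiation factor gene Eif3f (-0.78 ± 0.08) and the translocase gene Eef2 (-0.77 ± 0.07). In polysomal RNA 8 of 12 fell at FD22 relative to FD19, beside 7.7% of all probe sets, and 6 of 12 rose at P1 relative to FD22, beside 3.79%. In total RNA 6 of 12 fell at FD22, beside 7.82%, and 0 were called at P1 relative to FD22, beside 3.97% in either direction. These counts were 11, 7, 4, 5 and 0 without FD22 replicate 2. Eef1b2 showed both, with -0.86 ± 0.11 at FD22 over FD19 and 0.65 ± 0.11 at P1 over FD22 in polysomal RNA.

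Genes that make ribosomes, but are no part of them, differed in their ratio. Of 37 measured ribosome biogenesis genes, 15 were higher and 7 lower in polysomal RNA averaged over the stages (median 0.13), beside 46.4% of all probe sets called in either direction. Nop16, an assembly factor of the large subunit, stood at 1.05 ± 0.07, Ebna1bp2 at 0.94 ± 0.10 and Nip7 at 0.84 ± 0.09, and Rrp12, an export factor of pre-ribosomes, at -1.06 ± 0.12. In total RNA 20 of the 37 fell at FD22 relative to FD19 and none rose (median -0.50), beside 7.82% of all probe sets that fell. Among them were Nop58 (-1.28 ± 0.11, adjusted p = 5.24e-07 by limma) and Fbl (-1.12 ± 0.14), core proteins of the particles that methylate ribosomal RNA. In polysomal RNA 18 fell at FD22, beside 7.7% of all, and 12 rose at P1 relative to FD22, beside 3.79%. Without FD22 replicate 2, 16 were higher and 7 lower in mean ratio, 21 fell in total and 16 in polysomal RNA at FD22, and 6 rose in polysomal RNA at P1. Of 20 genes of RNA polymerases I and III, which make ribosomal RNA, 4 were higher and 7 lower in mean ratio, or 55% beside 46.4% of all probe sets. In total RNA 3 of the 20 fell at FD22 relative to FD19 and none rose, or 15% beside 16.2% called in either direction. Both shares lay near those of all probe sets. The lysate left out, 5 were higher and 6 lower in mean ratio, and 3 fell.

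Of 20 genes in the signalling path from TOR to TOP mRNAs, 7 were higher and 6 lower in mean ratio (median 0.00), or 65% beside 46.4% of all probe sets, and without FD22 replicate 2 they were 7 and 5. Larp1, which binds TOP mRNAs, had a mean ratio of -0.60 ± 0.15 and Eif4ebp2, a repressor of cap-dependent translation, -1.02 ± 0.10. In total RNA at FD22 relative to FD19, 2 of the 20 rose and 1 fell, or 15% beside 16.2% of all probe sets called. In polysomal RNA 0 rose and 1 fell, or 5% beside 15.9%. Without FD22 replicate 2 these counts were the same. Rps6kb1, the S6 kinase gene, was the gene that fell in both. Its change was -0.51 in total and -0.72 in polysomal RNA on the log2 scale (adjusted p = 0.0152 and 0.00128 by limma). Ddit4, which encodes the TORC1 inhibitor Redd1, was the 1 gene of the list (5%) called between P1 and FD22, beside 3.97% of all probe sets in total and 8.34% in polysomal RNA. It fell in total RNA (-1.87 ± 0.20) and in polysomal RNA (-1.77 ± 0.20, adjusted p = 2.13e-05). These lists were described by counts, and how their changes relate to those of the ribosomal protein genes was not tested.

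**Figure D5:**
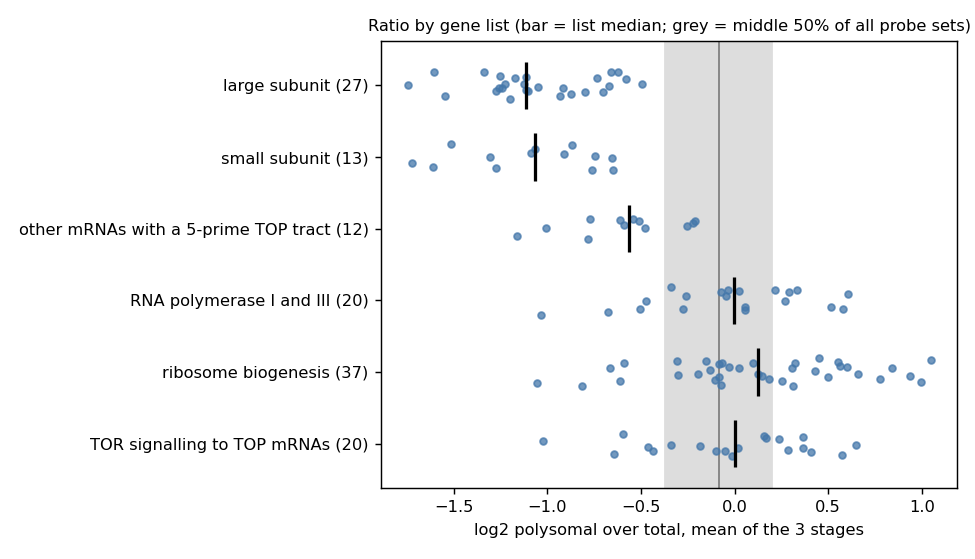
Mean polysomal over total ratio (log2, horizontal axis) of single genes, by list, with the number of genes in brackets. The bar is the median of the list, the grey line the median of all probe sets (-0.09) and the grey band their middle 50%. The large and small subunit genes have medians of -1.11 and -1.06, and the other TOP mRNAs -0.57.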

How the data were processed

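The deposited table holds linear intensity per probe set, made by the authors with GCOS 1.4 per the submitters' processing notes. The signal algorithm is not given in the sources used here. Of 31099 probe sets, 57 controls were left out, and 21675 were kept because their signal exceeded 40.8, the 40th percentile, on 3 or more of the 18 arrays. Array medians lay between 51.6 and 73.5.

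Values were fitted as log2(signal + 5.5), the constant being the 10th percentile, using R 4.3.3 and its package limma 3.58.1, with 6 group means, 12 residual degrees of freedom and eBayes with a variance trend. The 13 comparisons were adjusted by Benjamini-Hochberg over all kept probe sets. Fold changes of low signals are understated by the constant. The fit was tested on simulated data. Symbols came from the platform annotation and 0 changed after an update to the present gene table. Figures were drawn with matplotlib 3.10.9, and tables made with pandas 2.3.3 and numpy 2.4.6, under Python 3.11.15.

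The 3 lysates of a stage are separate litters, each read on 2 arrays. Arrays of one lysate deviated together in 9 of 9 cases (r 0.186 to 0.488), so they pair by design. Across stages no label names a shared litter or day. Equal numbers were taken to pair for polysomal FD22 and FD19 (0.226 to 0.498) and total P1 and FD19 (0.119 to 0.313), whose lowest r were largest. This choice was made from the arrays that were then tested. All r were also above 0 for total P1 and FD22 (0.092 to 0.42), polysomal P1 and FD22 (0.094 to 0.388) and polysomal P1 and FD19 (0.055 to 0.344). For total FD22 and FD19 they were -0.031 to 0.371.

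The members, gene lists and tests were chosen with earlier results of these data known. Named were the 6 lowest and 6 highest mean ratios, the called genes of each stage comparison (at most 8 by smallest p, or the 2 smallest where none was called), all genes outside the canonical list, the 3 largest and 3 smallest spreads over stages in total RNA, Rplp0, Rpsa, Rps6 and Rpl41, and up to 4 genes of each pathway list. The genes that missed a call, Rpl5, Rpl27a, Rpl39 and Rps13 where dim, and the lysate that stood apart were named after their values were seen. Alternatives tried were the constant, the filter, the scaling, the variance model, the replicate block, the groups fitted, the probe sets of a gene and leaving out lysates. The comparison with bright probe sets, the counts without Rps13 and Rpl39 and the gene lists without FD22 replicate 2 were chosen after seeing the data.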

Additional observations from a re-analysis of the deposited data

How the results depend on the processing

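For 207 single-gene results 4251 values over the settings kept direction and side of the threshold, 225 lost and 31 gained a call, and 4 reversed. After quantile normalization, the value of Rpl3, polysomal over total at FD19, was 0.0887 (adjusted p = 0.454 by limma). In the same setting that of Rpl6, polysomal over total at FD19, was 0.19 (0.0871), that of Rpl7, polysomal over total at FD19, was 0.12 (0.358), and that of Rpl18, polysomal over total at FD19, was 0.12 (0.497). The cause was not tested. Counts of canonical genes called that moved by over 1.5 times were as follows, given without the share of all probe sets in each setting. Polysomal over total at FD19 had 24 after quantile normalization. Total RNA at FD22 over FD19 had 2 with no filter, 0 after quantile normalization, 9 after median centring, 1 with no variance trend and 1 on arrays 2 and 3 only. Total RNA at P1 over FD19 had 2, 0, 3, 2 and 1 in the same settings, the last a gene that was higher at P1, as well as 14 with the replicate block and 11 with only the groups compared. Polysomal RNA at P1 over FD22 had 17 with no filter, 18 after quantile normalization, 16 with no variance trend and 1 with only the groups compared. Polysomal RNA at P1 over FD19 had 19 after quantile normalization and 0 on arrays 2 and 3 only. The replicate block moved no other count by over 1.5 times. It gave 39, 40 and 39 for the ratios at FD19, FD22 and P1 and 37 for polysomal FD22 over FD19. For polysomal P1 over FD22 it gave 24, beside 6.33% of all probe sets.

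Leaving out 1 lysate at a time gave 38 to 39 calls for the ratio at FD19, 39 to 40 at FD22, 26 to 38 at P1 and 40 to 40 for its mean. The ranges were 1 to 7 for total RNA at FD22 over FD19, 1 to 7 at P1 over FD19 and 0 to 0 at P1 over FD22. In polysomal RNA they were 18 to 33 at FD22 over FD19, 8 to 29 at P1 over FD22 and 1 to 4 at P1 over FD19, and 0 to 0 for the ratio changes. Without Rps13 and Rpl39 the counts were 38, 38 and 36 for the ratios and 30 in both polysomal comparisons of adjoining stages. With 3 arrays a group the number of arrays limits the precision, and changes of ratio carry the widest SE. Probe sets of different genes were not compared in level, and the polysomal fraction holds large polysomes only.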

Other observations

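A further 33 tested probe sets carry a ribosomal protein gene together with other genes, often pseudogenes, in the annotation, and were outside the rule. All 33 were lower in polysomal than in total RNA averaged over the stages and called by limma, beside 27.6% of all probe sets, with a median of -1.18 for that mean, and -1.04, -1.38 and -0.93 at FD19, FD22 and P1. In polysomal RNA 27 of the 33 fell at FD22 relative to FD19 (median -0.64), beside 7.7% of all probe sets, and 20 rose at P1 relative to FD22 (median 0.58), beside 3.79%. In total RNA 4 fell at FD22 relative to FD19, or 12.1% beside 16.2% of all called in either direction, and 0 were called between P1 and FD22, beside 3.97%. Without FD22 replicate 2 the 33, 27, 20, 4 and 0 were 33, 24, 14, 4 and 0. The values of these probe sets and of the 40 canonical genes come from the same arrays.

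Where a canonical gene had a further, dimmer probe set, the ratio was not always the same. The second probe set of Rpl7 averaged -0.02 ± 0.12, beside -0.58 ± 0.06 on the brighter one, and that of Rpl3 -0.46 ± 0.24, beside -0.66 ± 0.06. The second of Rps24 gave -1.36 ± 0.23, beside -1.09 ± 0.09, and the other 2 of Rpsa gave -1.14 ± 0.08 and -1.17 ± 0.07, beside -1.30 ± 0.07.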
